A study of Mus musculus with 22 samples.

Results

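The 95 genes described here carry the names of subunits of the 5 complexes of oxidative phosphorylation, tissue-specific isoforms and a few pseudogenes among them. They were chosen by gene name from a table of read counts over 47069 genes: symbols of the Nduf, Sdh, Uqcr, Cox4 to Cox8, Atp5 and mitochondrial mt- families with a mean of at least 10 reads over 22 libraries. Of 107 symbols that matched, 6 were named as pseudogenes or related sequences and 6 fell below the minimum. The members nearest to it were Ndufs6b, with a mean of 28.8 reads, Cox4i2, with 29.3, Cox7a1, with 30.6, and Ndufb4c, with 35.7, and the genes nearest below it were mt-Atp8, with 9.73, and Ndufa4l2, with 4.18. Ndufs6b, Ndufb4c and Cox6c2 are annotated as processed pseudogenes in GENCODE M21, though their names do not say so, and are counted as the name rule places them. The set holds 83 nuclear genes on 19 chromosomes and 12 genes of the mitochondrial genome, and all 95 passed the filter on low counts that precedes the tests. By complex there were 37 nuclear and 7 mitochondrial genes for complex I, 4 nuclear genes for complex II, 8 and 1 for complex III, 17 and 3 for complex IV, and 17 and 1 for complex V.

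The libraries were made from polyadenylated RNA of mouse whole bone marrow. LSK cells, the lineage-negative marrow fraction that contains the blood stem and progenitor cells, were taken from Cas9 knock-in mice, transduced with guide RNAs, and transplanted into C57BL/6J mice that had received 7 Gy of irradiation. Marrow was collected when a mouse showed signs of leukaemia or else at 6 months. The labels do not say which of these held for which mouse, nor give age or sex. All groups therefore share Cas9, transduction, irradiation and transplantation, and an edited marrow can still hold unedited donor cells and cells of the recipient. The control guide, sgLuc, is directed against luciferase and was used alone in 6 libraries. It was also the partner guide in sgRunx1 + sgLuc (3 libraries), sgEzh2 + sgLuc (3) and sgBcor + sgLuc (3). The remaining groups paired a chromatin or corepressor gene with the blood transcription factor gene Runx1: sgEzh2 + sgRunx1 (4 libraries) and sgBcor + sgRunx1 (3). Ezh2 encodes the methyltransferase of Polycomb repressive complex 2, while the Bcor protein is a corepressor found in a form of Polycomb repressive complex 1.

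Oxidative phosphorylation moves electrons from NADH and succinate through complexes I, II, III and IV to oxygen. Complexes I, III and IV pump protons across the inner mitochondrial membrane, and complex V uses the resulting gradient to make ATP. Complex II is wholly nuclear-encoded, while the others also carry subunits from the mitochondrial DNA, so that both genomes have to be expressed to build them. In blood, stem cells and mature neutrophils are known to rely largely on glycolysis, whereas proliferating progenitors and several kinds of acute myeloid leukaemia cell depend on mitochondrial respiration.

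Depth ranged from 30023722 to 57175449 counted reads per library. Levels per library are given as CPM, the usual depth-scaled count, with each library scaled by the trimmed mean of M-values (TMM), which may be compared between libraries but not between genes. Differences are log2 fold changes with their standard error (SE) from edgeR's quasi-likelihood test, and a gene is called where its Benjamini-Hochberg false discovery rate (FDR) over 17659 genes was under 0.05. The labels do not say that each library is a separate mouse, so the p-values measure the spread between these libraries. The third sgEzh2 + sgLuc library stood apart: its summed neutrophil markers were at 245 CPM, against 32206 or more elsewhere, and its summed T cell markers at 2583 CPM, against 144 or less, with reads for 7 of 7 of the T cell genes. It went against the label of whole marrow in that respect, and results that changed without it are given both ways or named as such. Transcripts of 4 Y-linked genes were found in 6 of 6 sgLuc libraries and in 0 of 16 edited ones, so sex and guide cannot be told apart in any comparison with sgLuc. Ezh2 itself was at 83.7 to 115.8 CPM of the library total in sgLuc, at 60.3 to 73.0 in sgEzh2 + sgLuc and at 43.0 to 82.2 in sgEzh2 + sgRunx1. It was also below the sgLuc range, at 63.9 to 80.1, in sgBcor + sgRunx1, which has no Ezh2 guide, whereas Runx1, at 89.6 to 134.1 in sgRunx1 + sgLuc against 80.1 to 98.6, and Bcor, at 109 to 219 in sgBcor + sgLuc against 46.8 to 68.7, were not lower in the marrow with their guides. In bulk marrow, fewer cells of a type and less RNA per cell cannot be told apart.

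Levels of different genes were compared as FPKM, fragments per kilobase of gene, scaled to the library, as the authors deposited them. The 1 length per gene in these values ran from 231 to 2666 bases over the nuclear genes, and the order of genes depends on it. The highest of the 95 genes was mt-Co1, the catalytic core of complex IV, with a mean FPKM of 4384 over the 22 libraries, followed by mt-Cytb, the cytochrome b of complex III, at 1901 and mt-Nd1 of complex I at 1726. Of the nuclear genes, Atp5b, the catalytic beta subunit of complex V, was highest at 893 FPKM. Leading nuclear genes of the other complexes were Cox4i1 at 551 FPKM, Sdha at 262, Uqcrc1 at 233 and Ndufa3 at 205. The median level of the nuclear genes was 84.1 FPKM for complex I, 86.4 for complex II, 151 for complex III, 158 for complex IV and 216 for complex V, and that of the 7 mitochondrial complex I genes was 578 FPKM. The mitochondrial genes fell into a high and a low set. mt-Nd2, mt-Nd4, mt-Nd5 and mt-Nd6 had 675, 632, 578 and 555 FPKM, beside the 3 leading genes named above, whereas mt-Co2 had 64.7, mt-Co3 31.7, mt-Atp6 31.2, mt-Nd3 12.4 and mt-Nd4l 5.47, although mt-Co2 and mt-Co3 encode core subunits of the same complex as mt-Co1. The genes of that low set are those with a nearly whole copy in a block on chromosome 1, described with the mitochondrial results.

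**Figure D1:**
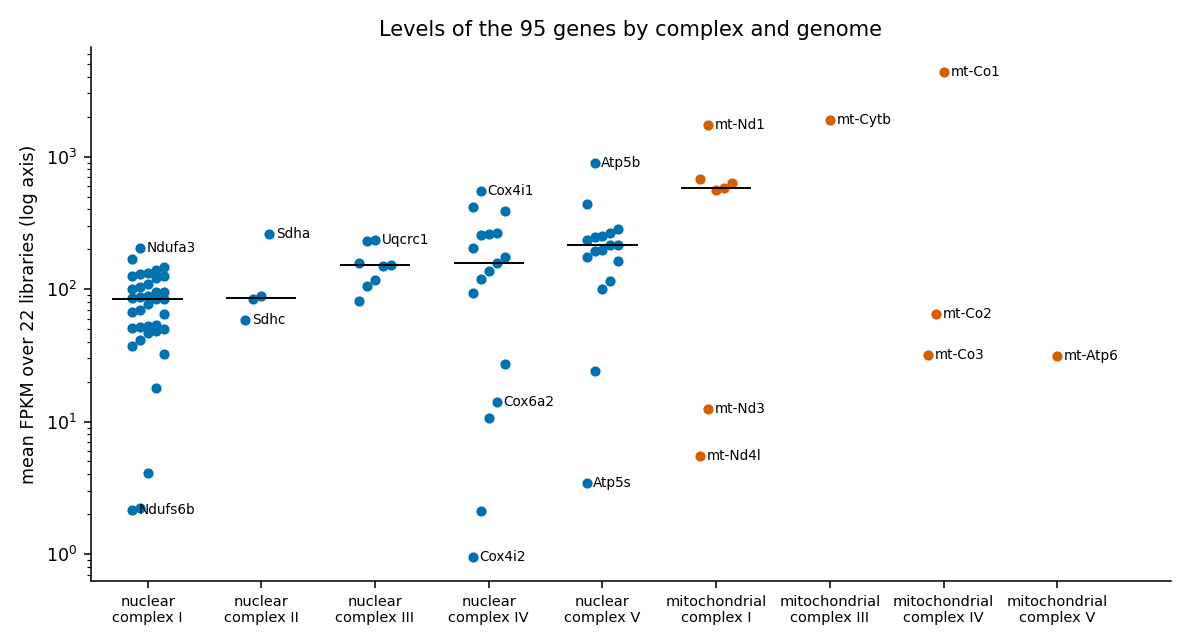
Mean FPKM over the 22 libraries, on a log axis, of each of the 95 genes by complex and by genome (one point per gene, with a bar at the median of sets of at least 4 genes). mt-Co1, mt-Cytb and mt-Nd1 lie above every nuclear gene, and mt-Co2, mt-Co3, mt-Atp6, mt-Nd3 and mt-Nd4l lie between 5.47 and 64.7 FPKM, below the median of every nuclear set.

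Marrow used the widely expressed isoforms of the nuclear subunits. Of the complex IV pairs, Cox6a1 had 389 FPKM against 14.1 for Cox6a2, the heart and muscle isoform. Cox6b1 had 263 against 27.2 for Cox6b2, known from testis, and Cox4i1 had 551 against 0.95 for Cox4i2, known from lung and from cells short of oxygen. Cox7a2 had 118 FPKM and Cox7a2l, a relative that helps join complexes into supercomplexes, had 176, against 2.10 for Cox7a1, the heart and muscle isoform. Cox8a was at 414 FPKM, while its relatives Cox8b and Cox8c fell below the minimum. The c-ring of complex V, the rotor that protons turn, is encoded by Atp5g1, Atp5g2 and Atp5g3, at 24.2, 251 and 247 FPKM. The lengths behind these values were 2666, 640 and 772 bases, while mean counts were 2661, 6607 and 7807 reads, so the gap is smaller in counts. Ndufa4, long counted with complex I and now known as a complex IV subunit, had 205 FPKM.

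Genes differed in how much they varied between libraries. The ratio of the highest to the lowest library in CPM was 1.31 for Ndufs1, a core iron-sulphur subunit of complex I, and 1.39 for Sdha. Among mitochondrial genes it ran from 2.07 for mt-Co1 to 7.25 for mt-Nd4l, with 3.09 for mt-Cytb and 5.48 for mt-Nd5. It was 65.4 for Cox6a2 and 82.9 for Cox4i2. Cox6a2 ranged in sgLuc from 5.49 over a median of 14.8 to 22.1 CPM. It stood at 19.1, 17.0 and 0.754 CPM in sgEzh2 + sgLuc and at 16.0, 21.9 and 16.9 in sgBcor + sgLuc, but at 2.63, 1.48 and 1.78 in sgRunx1 + sgLuc, 7.93, 0.339, 0.413 and 7.54 in sgEzh2 + sgRunx1, and 3.69, 7.10 and 0.862 in sgBcor + sgRunx1. Cox6a2 was not called in any pairwise comparison. Summed muscle markers were at 2.35 to 10.5 CPM in all libraries, with reads for 2 to 5 of the 6 listed genes. Of these, Myh1, Mb and Ckm had no read in most libraries. Ckm reached at most 0.207 CPM and Acta1 at most 0.411, so the sum came mainly from other genes of the list.

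Summed over the 83 nuclear genes, the level ranged in sgLuc from 8184 over a median of 8777 to 9675 CPM. It was 7729, 7507 and 9853 CPM in sgRunx1 + sgLuc, 8527, 8523 and 9408 in sgEzh2 + sgLuc, 8416, 8460 and 8017 in sgBcor + sgLuc, 8950, 10968, 8583 and 8752 in sgEzh2 + sgRunx1, and 9471, 11454 and 9948 in sgBcor + sgRunx1. The sgBcor + sgRunx1 libraries thus lay above all sgBcor + sgLuc libraries, and no group stood clear of sgLuc. On the log2 scale the difference of the sgBcor + sgRunx1 sum from sgLuc was 0.20, with an SD of 0.14 among its libraries and 0.09 among those of sgLuc. By complex it was 0.25 for complex I, 0.11 for complex II, 0.22 for complex III, 0.15 for complex IV and 0.21 for complex V.

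The sum over the 12 mitochondrial genes behaved differently. In sgLuc it ranged from 9955 over a median of 11740 to 14886 CPM. It was 15802, 16496 and 23272 CPM in sgEzh2 + sgLuc and 17093, 16668 and 14474 in sgBcor + sgLuc, against 12796, 11986 and 11907 in sgRunx1 + sgLuc, 9688, 10958, 11553 and 12753 in sgEzh2 + sgRunx1, and 14856, 9494 and 14316 in sgBcor + sgRunx1. The ratio of mitochondrial to nuclear sum set the single edits of Ezh2 and Bcor apart. It was 1.85, 1.94 and 2.47 in sgEzh2 + sgLuc and 2.03, 1.97 and 1.81 in sgBcor + sgLuc. Those 6 libraries lay above the other 16, in which it ran in sgLuc from 1.05 over a median of 1.30 to 1.74 and stood at 1.66, 1.60 and 1.21 in sgRunx1 + sgLuc, 1.08, 0.999, 1.35 and 1.46 in sgEzh2 + sgRunx1, and 1.57, 0.829 and 1.44 in sgBcor + sgRunx1.

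**Figure D2:**
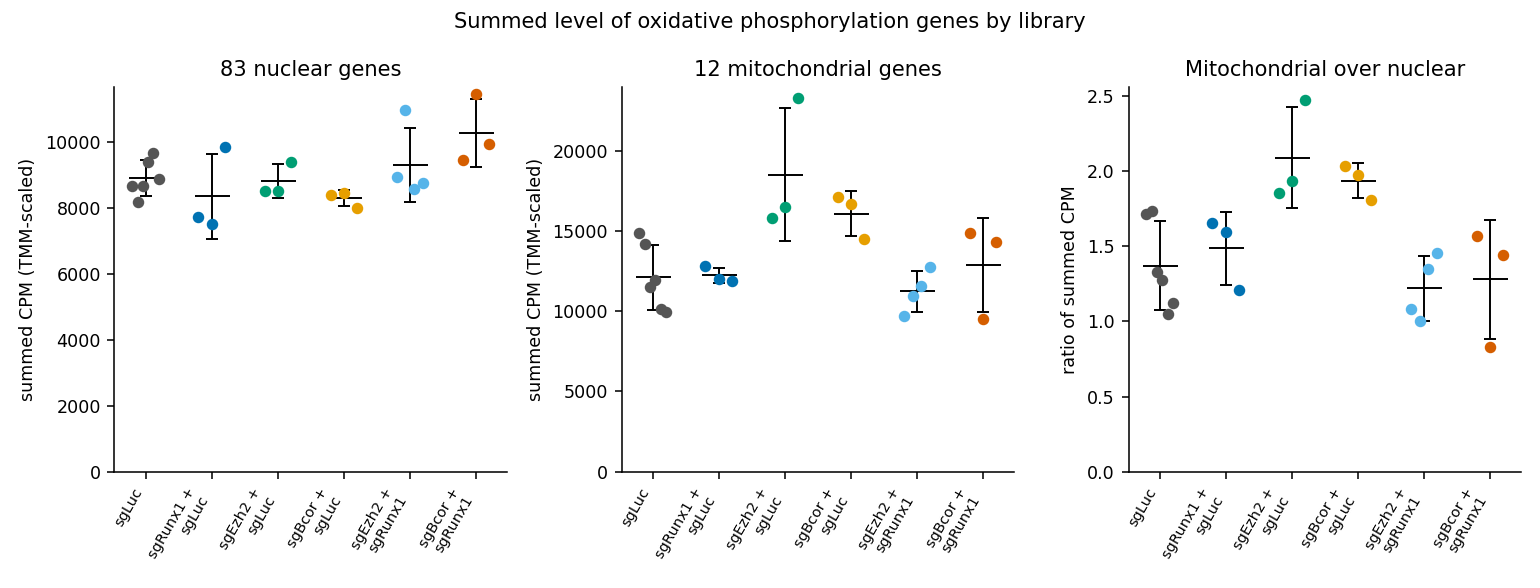
Summed CPM of the 83 nuclear genes, of the 12 mitochondrial genes and the ratio of both sums, one point per library and group, with a bar at the mean and whiskers of 1 SD. The sgEzh2 + sgLuc and sgBcor + sgLuc libraries have ratios from 1.81 to 2.47, above every other library.

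Of the 12 mitochondrial genes, 7 rose in sgEzh2 + sgLuc against sgLuc, and all 12 had a log2 fold change above 0, with a median of 0.75. Over all genes tested, 8.25% were called in that comparison, 6.29% higher and 1.95% lower, and the median was 0.06. In sgBcor + sgLuc against sgLuc, 4 of the 12 rose and all 12 were above 0, with a median of 0.45, where 3.16% of all genes were called. The comparisons with sgLuc share its 6 libraries and are set side by side here without a test of their likeness.

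mt-Cytb ranged in sgLuc from 1580 over a median of 1822 to 2256 CPM and stood at 2516, 2611 and 4709 CPM in sgEzh2 + sgLuc. The groups did not overlap. Its log2 fold change was 0.80 ± 0.19 (SE), with an FDR of 0.0154 in edgeR's test. mt-Nd4, of the proton-pumping arm of complex I, ranged from 620 to 967 CPM in sgLuc and was at 934, 1054 and 1660 CPM in sgEzh2 + sgLuc, overlapping slightly, with a log2 fold change of 0.66 ± 0.17 (edgeR FDR 0.0239). mt-Nd2, another subunit of that arm, had a log2 fold change of 0.70 ± 0.21 (edgeR FDR 0.0462). In sgBcor + sgLuc mt-Cytb stood at 2663, 2563 and 2416 CPM, likewise above all sgLuc libraries, but its log2 fold change of 0.43 ± 0.19 was not called (edgeR FDR 0.225). mt-Co1 stood at 8090, 8612 and 9720 CPM in sgEzh2 + sgLuc and at 8580, 8443 and 7117 in sgBcor + sgLuc, where sgLuc ranged from 4963 to 7611, and neither difference was called.

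Without the third sgEzh2 + sgLuc library, mt-Co2, mt-Co3 and mt-Atp6 alone of the mitochondrial genes were called against sgLuc, all 3 higher, while all 12 stayed above 0 with a median of 0.42 and 1.05% of all genes were called. The calls of mt-Cytb, mt-Nd2, mt-Nd4 and mt-Nd4l ended. That library had the highest mt-Cytb, mt-Nd1 and mt-Nd5 values of all 22, at 4709, 3193 and 1816 CPM, beside its markers of T cells.

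mt-Co2, mt-Co3 and mt-Atp6 rose in all 5 edited groups against sgLuc, but in sgRunx1 + sgLuc the calls rested on single libraries: 0 of the 3 were called without its first library and 1, mt-Co3, without its second. mt-Co2 ranged in sgLuc from 22 over a median of 27.8 to 31.5 CPM. It was at 40.5, 37.9 and 39.0 CPM in sgRunx1 + sgLuc, 54.8, 58.8 and 69.6 in sgEzh2 + sgLuc, 64.1, 52.6 and 49.3 in sgBcor + sgLuc, 36.2, 42.4, 50.8 and 42.7 in sgEzh2 + sgRunx1, and 57.6, 58.1 and 48.5 in sgBcor + sgRunx1. No edited library overlapped the sgLuc range. In that order of groups the log2 fold changes were 0.52 ± 0.13, 1.17 ± 0.13, 1.02 ± 0.13, 0.66 ± 0.12 and 1.01 ± 0.13, with edgeR FDRs of 0.0152, 3.43e-05, 0.000165, 0.00119 and 0.000106. For mt-Co3, another core subunit of complex IV, they were 0.65 ± 0.14, 1.20 ± 0.14, 1.14 ± 0.14, 0.62 ± 0.13 and 0.91 ± 0.14, and for mt-Atp6, the subunit of complex V that forms the proton path, 0.75 ± 0.18, 1.31 ± 0.18, 1.25 ± 0.18, 0.75 ± 0.17 and 1.09 ± 0.18, each called by edgeR. The highest sgLuc library was at 19.1 CPM for mt-Co3 and 13.9 for mt-Atp6, and the lowest edited library at 20.4 and 15.9. mt-Nd4l, a small membrane subunit of complex I, rose by 1.67 ± 0.37 in sgEzh2 + sgLuc (edgeR FDR 0.0121) and by 1.56 ± 0.37 in sgBcor + sgLuc (edgeR FDR 0.0286), from 0.476 to 1.23 CPM in sgLuc.

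**Figure D3:**
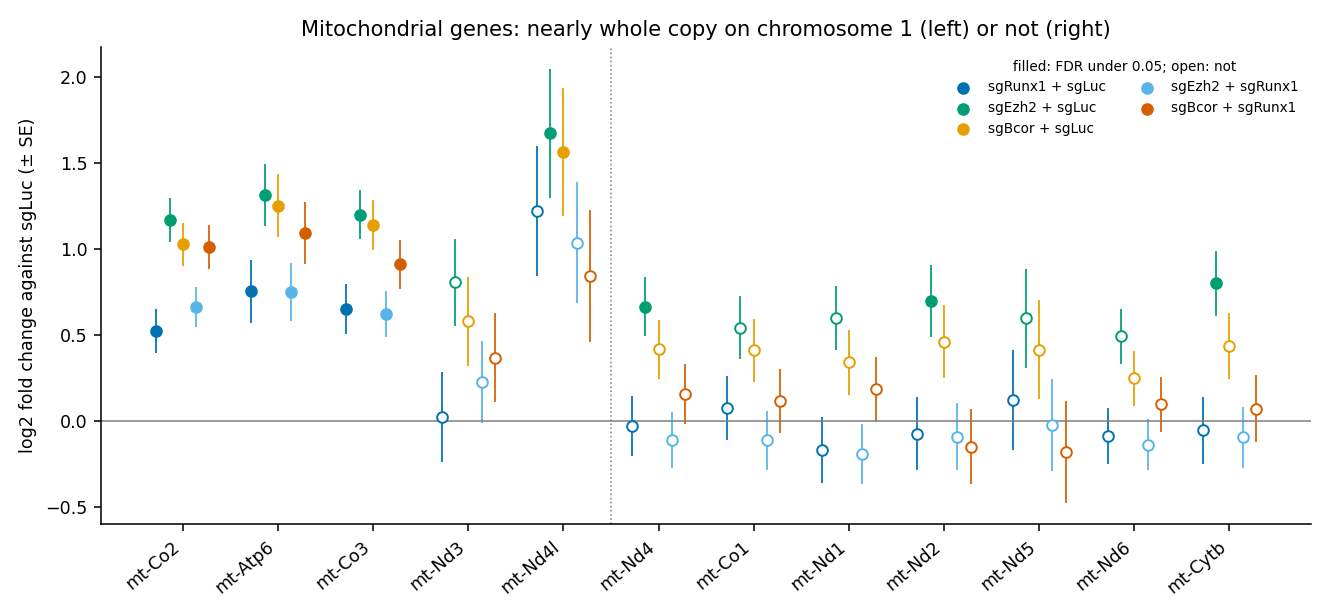
Log2 fold change against sgLuc, with its SE, of the 12 mitochondrial genes in the 5 edited groups, with filled points where edgeR's FDR was under 0.05; genes left of the dotted line have a nearly whole copy on chromosome 1. mt-Co2, mt-Atp6 and mt-Co3 are filled in all 5 groups, while to the right of the line the filled points are those of sgEzh2 + sgLuc for mt-Nd4, mt-Nd2 and mt-Cytb.

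All 12 mitochondrial genes resemble other transcripts to some extent. In a search of the mitochondrial transcripts against the GENCODE M21 transcripts of GRCm38, 7 of the 12 genes matched pseudogenes in a block at chr1:24611535-24616197, minus strand, which holds 7 annotated pseudogenes. Over their aligned length, mt-Co2 was identical to Gm28661 for 681 of its 684 bases, mt-Atp6 to Gm10925 for 678 of 681, mt-Co3 to Gm28437 for 783 of 784 and mt-Nd4l to Gm10222 for 294 of 297, and mt-Nd3 matched Gm28438 over 345 of 348 bases with 1 mismatch. mt-Nd4 matched over 63.6% of its length and mt-Co1 over 31.3%, and 5 genes did not match in the block. Outside the block, Gm13340 on chromosome 2 was 97.605% identical to mt-Co1, Gm11408 on chromosome 4 93.642% identical to mt-Nd6 and Gm11410, also on chromosome 4, 92.907% identical to mt-Cytb, each over nearly the whole gene. The opening 60 bases of mt-Co2 (chrM:7013-7696) and of its copy Gm28661 (chr1:24614885-24615565, minus strand), of mt-Nd3 (chrM:9459-9806) and Gm28438 (chr1:24612775-24613119, minus strand), and bases 24 to 83 of mt-Co1 (chrM:5328-6872) and Gm13340 (chr2:22588103-22589647, minus strand) are shown 5′ to 3′ from the GENCODE M21 transcripts, with differing bases in capitals, to show how far a read can distinguish a gene from its copy.
mt-Co2: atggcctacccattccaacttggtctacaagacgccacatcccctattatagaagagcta
Gm28661: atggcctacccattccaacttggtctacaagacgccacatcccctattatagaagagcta
mt-Nd3: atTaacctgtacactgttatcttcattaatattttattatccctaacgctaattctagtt
Gm28438: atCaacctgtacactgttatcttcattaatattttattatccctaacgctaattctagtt
mt-Co1: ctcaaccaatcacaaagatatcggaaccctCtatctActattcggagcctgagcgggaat
Gm13340: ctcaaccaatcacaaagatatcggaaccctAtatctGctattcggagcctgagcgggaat

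The mt-Co2 window holds 0 differences, the mt-Nd3 window 1 and the mt-Co1 window 2. How the authors' counting treated reads that align in more than 1 place is not given in the sources used here, so the levels of the 5 genes with nearly whole copies in the block are uncertain, and those of mt-Nd4 and mt-Co1 over the part that is copied. Together these 5 genes made up 0.448% to 0.527% of the mitochondrial CPM in sgLuc and 0.690% to 1.22% in the 16 edited libraries, without overlap. The 7 pseudogenes of the block were themselves listed with reads. Their summed level ranged in sgLuc from 43.1 over a median of 54.4 to 64.5 CPM, and was 111, 113 and 148 CPM in sgEzh2 + sgLuc, 122, 114 and 93.3 in sgBcor + sgLuc, 90.0, 89.2 and 64.3 in sgRunx1 + sgLuc, 70.8, 84.8, 98.6 and 83.6 in sgEzh2 + sgRunx1, and 115, 97.7 and 91.9 in sgBcor + sgRunx1. Only the third sgRunx1 + sgLuc library fell within the sgLuc range. Gm28661 rose by 1.13 ± 0.13 in sgEzh2 + sgLuc (edgeR FDR 9e-05), beside the 1.17 ± 0.13 of mt-Co2. The genomic source of these reads was not tested. For the other 7 mitochondrial genes summed, sgEzh2 + sgLuc differed from sgLuc by 0.60 and sgBcor + sgLuc by 0.42 on the log2 scale, with SDs of 0.31 and 0.13 among the libraries and 0.24 in sgLuc. Reads of mt-Nd6, which is encoded on the strand opposite to the other genes and overlaps the end of mt-Nd5, cannot be told apart from mt-Nd5 reads there, as the use of strand in counting is not given in the sources used here.

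Adding the Runx1 guide to Ezh2 editing went with lower mitochondrial genes. Against sgEzh2 + sgLuc, 8 of the 12 fell in sgEzh2 + sgRunx1 and all 12 were below 0, with a median of -0.63, where 12.6% of all genes were called, 3.98% higher and 8.64% lower, and the median over all genes was -0.06. mt-Cytb was at 1524, 1668, 1802 and 2069 CPM in sgEzh2 + sgRunx1, below the 2516, 2611 and 4709 of sgEzh2 + sgLuc without overlap, and fell by 0.89 ± 0.21 (edgeR FDR 0.00751). mt-Nd1 was at 1181, 1173, 1391 and 1531 CPM against 1802, 1833 and 3193, and fell by 0.79 ± 0.20 (edgeR FDR 0.0148). mt-Nd4 fell by 0.77 ± 0.19, mt-Nd2 by 0.79 ± 0.23, mt-Nd6 by 0.63 ± 0.17, mt-Co1 by 0.65 ± 0.20, mt-Co3 by 0.58 ± 0.16 and mt-Co2 by 0.51 ± 0.14, with edgeR FDRs from 0.0101 to 0.0369. Without the third sgEzh2 + sgLuc library, mt-Cytb alone was called lower, by 0.54 (edgeR FDR 0.0437), the median of the 12 was -0.40 and all 12 were still below 0. The share of all genes called without that library is not given here, so the loss of calls is not read as particular to these genes.

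In Bcor-edited marrow the same addition gave 0 calls among the 12 mitochondrial genes by edgeR, 0 by DESeq2 and 0 by limma voom, with 1 gene at an unadjusted p under 0.05, although all 12 were below 0 with a median of -0.24. The sgBcor + sgRunx1 libraries were unequal here: mt-Nd5, of the proton-pumping arm of complex I, stood at 1132, 331 and 1027 CPM, and mt-Co1 at 7542, 4704 and 7402. Marker sums moved with both comparisons. B cell markers stood at 27.8 to 49.5 CPM in sgEzh2 + sgRunx1 against 811 to 1270 in sgEzh2 + sgLuc, and at 19.9 to 45.2 in sgBcor + sgRunx1 against 59.5 to 1860 in sgBcor + sgLuc. T cell markers stood at 3.56 to 13.4 CPM against 137 to 2583, and at 1.24 to 15.5 against 69 to 142. Ms4a1 and Igll1 of the 6 B cell markers, and Cd3e of the 7 T cell markers, had no read in some sgEzh2 + sgRunx1 libraries. Their part in the mitochondrial differences was not tested.

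Nuclear genes were higher in sgBcor + sgRunx1 than in sgBcor + sgLuc. There 12 of the 83 nuclear genes rose and 0 fell, and 79 of the 83 were above 0, or 95.2%, against 46.9% of all genes tested. Over all genes 12.2% were called in either direction, 3.47% higher and 8.77% lower, so that the nuclear members, with 14.5% called, lay above the background for higher calls and below that for lower calls. The median log2 fold change was 0.31 for the nuclear genes and -0.04 for all genes. By complex, 8 of 37 nuclear genes of complex I rose, 1 of 4 of complex II, 1 of 8 of complex III, 1 of 17 of complex IV and 1 of 17 of complex V, with medians of 0.38, 0.26, 0.32, 0.29 and 0.29. All 17 genes of complex V and 36 of 37 of complex I were above 0.

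**Figure D4:**
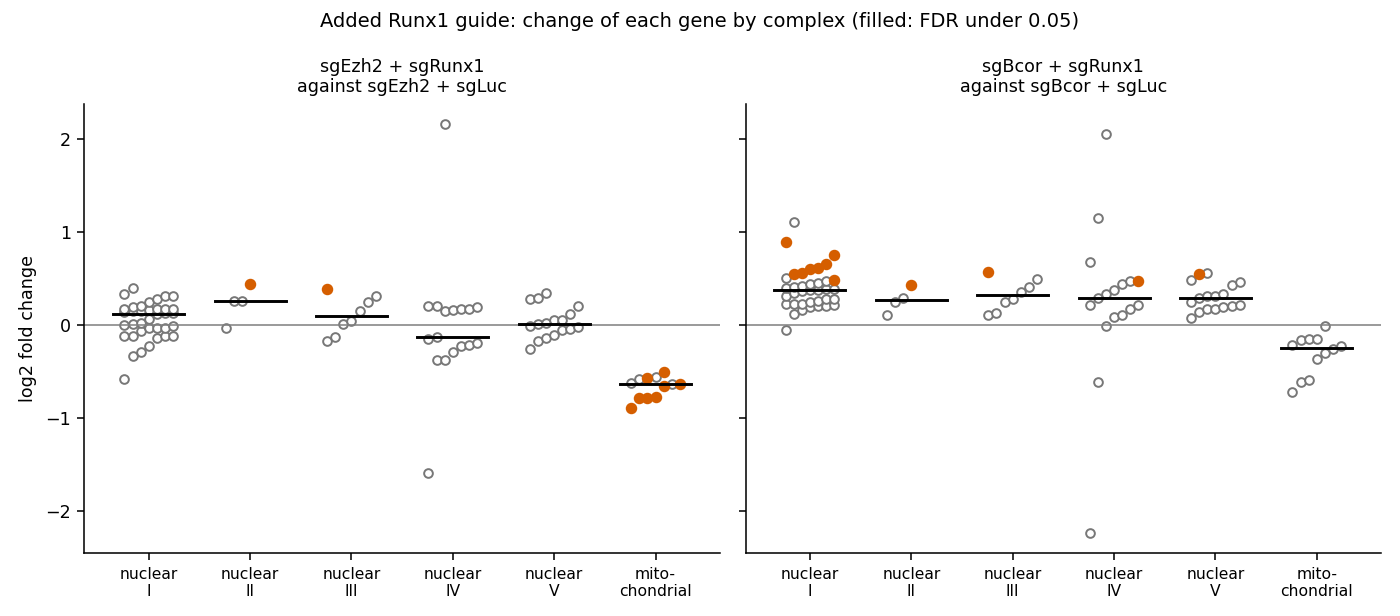
Log2 fold change of each gene when the Runx1 guide is added, in Ezh2-edited marrow on the left and Bcor-edited marrow on the right, by complex for the nuclear genes and pooled for the mitochondrial genes, with a bar at the median and filled points where edgeR's FDR was under 0.05. On the right, nuclear medians lie between 0.26 and 0.38 and the mitochondrial median at -0.24; on the left the mitochondrial median lies at -0.63.

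Ndufv3, an accessory subunit of the NADH-binding module of complex I, was at 120, 148 and 138 CPM in sgBcor + sgRunx1, against 68.8, 86.6 and 63.2 in sgBcor + sgLuc. No other library of the 22 reached these values: sgLuc ranged from 60.6 over a median of 80.7 to 88.6 CPM, and the highest remaining library was a sgRunx1 + sgLuc library at 100. The log2 fold change was 0.89 ± 0.15 against sgBcor + sgLuc (edgeR FDR 0.00126) and 0.78 ± 0.13 against sgLuc (edgeR FDR 0.000491). Ndufa8, another accessory subunit of complex I, was at 104, 121 and 111 CPM against 69.5, 70.3 and 59.4, without overlap. It rose by 0.75 ± 0.14 (edgeR FDR 0.00233).

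Uqcrc1, a core protein of complex III, was at 268, 296 and 280 CPM in sgBcor + sgRunx1 against 187, 194 and 190 in sgBcor + sgLuc and 210 to 238 in sgLuc, and the groups did not overlap. Its log2 fold change against sgBcor + sgLuc was 0.57 ± 0.12 (edgeR FDR 0.00626). Sdhd, a membrane anchor of complex II, was at 132, 147 and 124 CPM against 101, 99.9 and 96.9, also without overlap, and rose by 0.43 ± 0.10 (edgeR FDR 0.00788). The calls of these 4 genes against sgBcor + sgLuc held whichever of the 22 libraries was left out.

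The remaining complex I genes that rose belong to both arms of the enzyme. Ndufs8, a core iron-sulphur subunit, was at 80.0, 123 and 94.1 CPM against 70.7, 66.1 and 67.0, and rose by 0.54 ± 0.15 (edgeR FDR 0.0248). Ndufs6 was at 51.8, 69.3 and 64.0 CPM against 38.9, 48.2 and 35.4, and Ndufa2 at 79.2, 119 and 91.2 against 66.7, 65.6 and 57. These accessory subunits of the peripheral arm rose by 0.59 ± 0.18 and 0.61 ± 0.18. In the membrane arm, Ndufb7 was at 139, 212 and 190 CPM against 112, 126 and 104, and Ndufb9 at 87.2, 109 and 84.9 against 69.6, 72.5 and 59.5. Ndufb7, Ndufb9 and Ndufa11 rose by 0.66 ± 0.20, 0.48 ± 0.14 and 0.56 ± 0.18, with edgeR FDRs of 0.0350, 0.0326 and 0.0461. Atp5l, the subunit g at the contact between complex V dimers, was at 156, 189 and 161 CPM against 124, 130 and 91.8 and rose by 0.55 ± 0.17 (edgeR FDR 0.0408). Cox4i1, at 360, 497 and 362 CPM against 303, 299 and 276, rose by 0.47 ± 0.15 (edgeR FDR 0.0491).

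The second sgBcor + sgRunx1 library was the highest of the 3 for each of these 12 genes. Without it, Ndufv3, Ndufa8, Uqcrc1 and Sdhd were the 4 nuclear genes called against sgBcor + sgLuc, the median was 0.20 and 75 of 83 were above 0, where 8.34% of all genes were called. Without the third sgEzh2 + sgLuc library, which takes no part in the comparison but in the estimate of the spread, 23 nuclear genes rose and 1 mitochondrial gene fell, with 21.1% of all genes called. With library totals in place of TMM scaling, 3 of the 83 were called and 67 were above 0, with a median of 0.14. For that scaling the share of all genes called is not given here. Summed granulocyte precursor markers stood at 9662 to 16065 CPM in sgBcor + sgRunx1 and at 5678 to 6248 in sgBcor + sgLuc, with reads for all 4 of the listed genes that the table holds, and proliferation markers at 1459 to 1907 against 1679 to 1950. Their part in the rise of the nuclear genes was not tested.

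Promoter sequences were available for 66 of the 83 nuclear genes, from RefSeq on GRCm38.p6, covering 250 bases before to 50 after each gene's start. The 4 called genes above that held under every omission are Ndufv3 (chr17:31519865-31520164, plus strand), Ndufa8 (chr2:36049289-36049588, minus strand), Uqcrc1 (chr9:108936398-108936697, plus strand) and Sdhd (chr9:50603800-50604099, minus strand). Their promoters are shown 5′ to 3′ because these calls held. In Ezh2-edited marrow the added Runx1 guide went with log2 fold changes of -0.12, 0.40, 0.38 and 0.25 in that order, so the 4 genes did not all move alike. Capitals mark matches on either strand to GCGCNTGCG, the core of the site of the nuclear respiratory factor NRF1 with 1 open base, and to CCGGAAG, a site of ETS factors such as GABP; both factors are known regulators of respiratory genes.
Ndufv3: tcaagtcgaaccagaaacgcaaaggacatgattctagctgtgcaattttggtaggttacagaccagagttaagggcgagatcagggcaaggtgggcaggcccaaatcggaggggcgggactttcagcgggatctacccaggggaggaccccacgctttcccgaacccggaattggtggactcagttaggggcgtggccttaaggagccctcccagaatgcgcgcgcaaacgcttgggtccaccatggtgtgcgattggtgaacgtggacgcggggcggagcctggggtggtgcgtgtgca
Ndufa8: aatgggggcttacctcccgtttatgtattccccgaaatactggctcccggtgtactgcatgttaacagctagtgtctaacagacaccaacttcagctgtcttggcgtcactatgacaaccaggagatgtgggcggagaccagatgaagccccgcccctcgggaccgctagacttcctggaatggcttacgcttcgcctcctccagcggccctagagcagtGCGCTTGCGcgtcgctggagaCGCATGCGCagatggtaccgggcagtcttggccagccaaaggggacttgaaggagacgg
Uqcrc1: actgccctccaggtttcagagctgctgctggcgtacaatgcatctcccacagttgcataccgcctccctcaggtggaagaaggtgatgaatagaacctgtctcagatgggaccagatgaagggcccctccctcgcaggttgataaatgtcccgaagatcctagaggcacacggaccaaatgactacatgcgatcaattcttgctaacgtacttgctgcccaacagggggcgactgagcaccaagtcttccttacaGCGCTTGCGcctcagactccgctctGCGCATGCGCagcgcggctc
Sdhd: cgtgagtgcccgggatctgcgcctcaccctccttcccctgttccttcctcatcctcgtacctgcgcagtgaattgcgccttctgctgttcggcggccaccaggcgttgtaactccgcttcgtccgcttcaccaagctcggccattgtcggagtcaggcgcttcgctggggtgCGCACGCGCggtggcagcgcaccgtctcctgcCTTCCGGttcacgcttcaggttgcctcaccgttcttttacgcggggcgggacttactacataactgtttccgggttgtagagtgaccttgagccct

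Ndufa8 held 2 such NRF1 forms, Uqcrc1 2 and Sdhd 1 beside 1 ETS form, with overlapping matches counted once, while neither run of letters was found in the Ndufv3 window. Of the 66 promoters, 23 held GCGCNTGCG, or 34.8%, against 7.12% of 27025 genes with promoters, and 8 held its version GCGCATGCG, or 12.1% against 1.95%. CCGGAAG was found in 16, or 24.2%, against 9.93%. The letters AAGATGGCG, a site of the factor YY1, were found in 7, or 10.6% against 1.64%, TATAAA in 5, or 7.58% against 15.7%, and CCAAT in 29, or 43.9% against 41.1%. All were searched on both strands. Of the 12 genes that rose in sgBcor + sgRunx1 against sgBcor + sgLuc, 9 had a promoter in the table, of which 6 held GCGCNTGCG and 4 CCGGAAG. A match of letters is not a shown site.

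Against sgLuc, sgBcor + sgRunx1 had 7 nuclear genes higher and 0 lower, 71 of 83 above 0 and a median of 0.21, where 14.4% of all genes were called, 4.73% higher and 9.69% lower. With library totals in place of TMM scaling 5 were higher and 2 lower. Ndufv3, Ndufa8, Ndufs8 and Uqcrc1 were among them. Ndufb5, an accessory subunit of the membrane arm of complex I, was at 56.6, 74.3 and 58.0 CPM against 42.4 to 53.7 in sgLuc and rose by 0.48 ± 0.14 (edgeR FDR 0.0219). Atp5o, which encodes the subunit of complex V that joins its head to the peripheral stalk, was at 119, 166 and 126 CPM against 94.2 to 104 and rose by 0.46 ± 0.12 (edgeR FDR 0.0157). Cox7a2, at 90.1, 119 and 124 CPM against 63.9 to 89.5, rose by 0.53 ± 0.16 (edgeR FDR 0.0327). Without the second sgBcor + sgRunx1 library these calls ended, except that of Ndufv3, and 1 nuclear gene was called in each direction. As the shares of all genes called with library totals and without that library are not given here, these changes in count are not read as particular to the members.

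Against sgRunx1 + sgLuc, with which sgBcor + sgRunx1 shares the Runx1 guide, 3 complex I genes rose where 1.24% of all genes were called. They were Ndufa8 by 0.67 ± 0.14 (edgeR FDR 0.0253), Ndufv3 by 0.69 ± 0.15 (edgeR FDR 0.0295) and Ndufs6 by 0.75 ± 0.18 (edgeR FDR 0.0436). Ndufs6 was at 51.8, 69.3 and 64.0 CPM against 34.0, 29.4 and 46.5. Nuclear genes were above 0 in 80 of 83 cases, including 37 of 37 of complex I, with a median of 0.35. Without the second sgBcor + sgRunx1 library 0 nuclear genes were called, and without the third sgRunx1 + sgLuc library 12. The shares of all genes called under these omissions are not given here, so the change in count is not read as particular to the members.

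**Figure D5:**
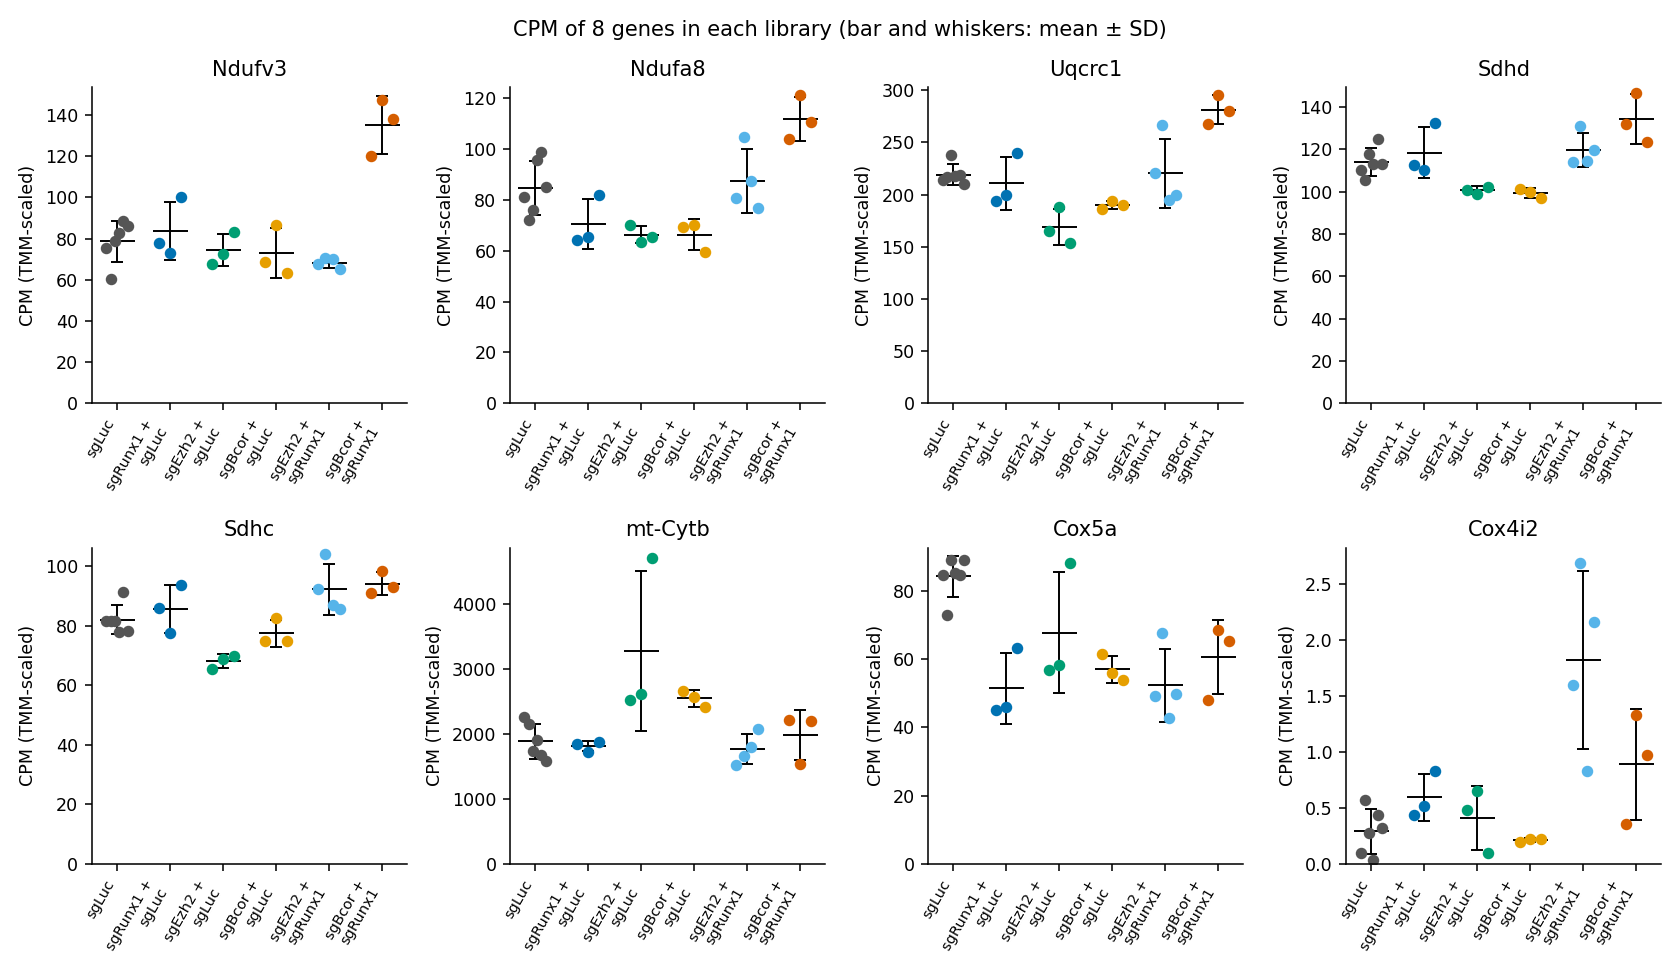
CPM of Ndufv3, Ndufa8, Uqcrc1, Sdhd, Sdhc, mt-Cytb, Cox5a and Cox4i2 in each library by group, with a bar at the mean and whiskers of 1 SD. Ndufv3 lies at 120 to 148 CPM in sgBcor + sgRunx1 and at 100 or below elsewhere, and Sdhc at 65.3 to 69.7 CPM in sgEzh2 + sgLuc, below all other libraries.

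Complex II, which links the citric acid cycle to respiration and has no mitochondrially encoded subunit, showed small differences. On the log2 scale the SD of its sum was 0.05 in sgLuc, but 0.14 in sgEzh2 + sgRunx1 and 0.10 in sgBcor + sgRunx1. Sdha, its flavoprotein, ranged in sgLuc from 193 to 235 CPM, was at 170, 171 and 171 CPM in sgEzh2 + sgLuc and at 192, 228, 183 and 212 in sgEzh2 + sgRunx1, and was not called. Sdhb, the iron-sulphur subunit, was at 75.9 to 106 CPM in sgLuc and 96.7, 98.2 and 109 in sgEzh2 + sgLuc, also without a call. Sdhc, a membrane anchor, was at 65.3, 68.9 and 69.7 CPM in sgEzh2 + sgLuc, below all other 19 libraries, and at 92.2, 104, 86.9 and 85.4 in sgEzh2 + sgRunx1. It rose by 0.44 ± 0.09 with the Runx1 guide (edgeR FDR 0.00380), in 4 of 4 libraries, and the call held whichever library was left out. The other anchor gene, Sdhd, stood at 114, 131, 114 and 120 CPM in sgEzh2 + sgRunx1 against 101, 98.8 and 102 in sgEzh2 + sgLuc, without a call.

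Uqcrc1 was the only other nuclear gene called between sgEzh2 + sgRunx1 and sgEzh2 + sgLuc. It was at 221, 267, 195 and 200 CPM against 165, 188 and 154 and rose by 0.38 ± 0.11 (edgeR FDR 0.0327), and fell by 0.38 ± 0.11 in sgEzh2 + sgLuc against sgLuc (edgeR FDR 0.0367). Both calls ended without the third sgEzh2 + sgLuc library. In all, 2 of 83 nuclear genes rose and 0 fell there, 48 were above 0 and the median was 0.05, so that nuclear genes lay near the middle of all genes while the mitochondrial ones fell. Against sgLuc, sgEzh2 + sgLuc had 1 nuclear gene higher and 2 lower, where 6.29% of all genes were called higher and 1.95% lower, with a median of -0.03. With library totals the median became 0.09, and 9 were higher and 1 lower, for which the share of all genes is not given here. Without the third sgEzh2 + sgLuc library 0 nuclear genes were called there by edgeR, where 1.05% of all genes were, and the median was -0.08.

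Nuclear calls in the single Runx1 edit were all lower. Of 83 nuclear genes, 6 fell and 0 rose in sgRunx1 + sgLuc against sgLuc, and 60 were below 0 with a median of -0.13, where 8.12% of all genes were called, 2.76% higher and 5.36% lower. At 7.23%, the share of nuclear members called lower was near that background. Of the 17 nuclear complex IV genes, 4 fell. Cox5a, a subunit that faces the matrix, was at 45.0, 46.0 and 63.4 CPM in sgRunx1 + sgLuc against 72.9 over a median of 85.0 to 89.1 in sgLuc, without overlap, and fell by 0.71 ± 0.17 (edgeR FDR 0.0126). Cox5b, another such subunit, was at 94.0, 89.9 and 136 CPM against 135 to 170 and fell by 0.51 ± 0.15 (edgeR FDR 0.0429). Cox6b2 was at 5.26, 6.94 and 8.22 CPM against 13.4 to 23.6 and fell by 1.5 ± 0.40 (edgeR FDR 0.0249). Cox6c2, annotated as a processed pseudogene, was at 0.996, 0.896 and 1.91 CPM against 3.10 to 3.97 and fell by 1.46 ± 0.34 (edgeR FDR 0.0121). Atp5k, the subunit e of complex V, was at 24.8, 25.6 and 39.3 CPM against 37.7 to 57 and fell by 0.65 ± 0.18 (edgeR FDR 0.0321).

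Cox5a fell in the double edit of Ezh2 and Runx1 as well, to 49.1, 67.7, 42.7 and 49.9 CPM, below all sgLuc libraries, by 0.69 ± 0.15 (edgeR FDR 0.00601). It was also below the sgLuc range in sgBcor + sgLuc, at 61.5, 55.9 and 53.9 CPM, and in sgBcor + sgRunx1, at 48.1, 68.5 and 65.3, without a call in either. Without the third sgRunx1 + sgLuc library, whose nuclear sum of 9853 CPM stood above the other 2, 10 nuclear genes fell in sgRunx1 + sgLuc with a median of -0.29. Each of the first and second libraries, left out in turn, ended the calls of Cox5a, Cox6c2 and Atp5k, among others, and the count of members called ran from 1 to 16 over all omissions. As the shares of all genes called under these omissions are not given here, these counts are not read as particular to the members.

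Genes with few reads gave larger fold changes. Cox4i2 was at 1.60, 2.69, 0.826 and 2.16 CPM in sgEzh2 + sgRunx1 against 0.0324 to 0.569, with a median of 0.297, in sgLuc, and rose by 2.63 ± 0.58 (edgeR FDR 0.00594). All 4 libraries lay above the sgLuc range, as did some libraries of other groups, at 1.33 and 0.973 in sgBcor + sgRunx1, 0.828 in sgRunx1 + sgLuc and 0.652 in sgEzh2 + sgLuc. Beside it, the same marrow held 331 to 408 CPM of Cox4i1. Ndufs6b, annotated as a processed pseudogene, was at 1.11 to 1.80 CPM in sgLuc and at 0.332, 0.224 and 0.155 in sgRunx1 + sgLuc, falling by 2.54 ± 0.50 (edgeR FDR 0.00394). It fell by 1.58 ± 0.46 in sgEzh2 + sgLuc and by 1.80 ± 0.47 in sgBcor + sgLuc, calls that ended in 13 and 14 of the 22 omissions, that of the third sgEzh2 + sgLuc library among the 13. Ndufb4c, another processed pseudogene, was at 1.62, 1.01 and 1.66 CPM in sgEzh2 + sgLuc against 0.324 to 0.801 and rose by 1.37 ± 0.38 (edgeR FDR 0.0311). Without the third library of that group its difference was 1.25 (edgeR FDR 0.206). Whether Ndufs6b, Cox6c2 and Ndufb4c share reads with their parent genes depends on the counting, so these values are uncertain.

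The remaining comparisons gave few calls. In sgBcor + sgLuc against sgLuc, 0 nuclear genes rose and 1, Ndufs6b, fell, where 1.97% of all genes were called higher and 1.19% lower, and 61 of 83 were below 0 with a median of -0.11. In sgEzh2 + sgRunx1 against sgLuc, Cox4i2 and Cox5a were the nuclear calls, where 10.1% of all genes were called, 4.03% higher and 6.09% lower, and the median was 0.05. Between sgEzh2 + sgRunx1 and sgRunx1 + sgLuc 0 of 95 members were called by edgeR, where 0.187% of all genes were, 0.136% higher and 0.0510% lower, with 17 at an unadjusted p under 0.05, 0 called by DESeq2 and 0 by limma voom. There 72 of the 83 nuclear genes were above 0, with a median of 0.19.

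Whether the Runx1 guide acted differently in Ezh2-edited and Bcor-edited marrow was tested as an interaction. It gave 0 called members by edgeR, 13 at an unadjusted p under 0.05, 1 called by DESeq2 and 0 by limma voom, where 0.0623% of all genes were called. The interaction of Ndufv3 had the smallest p, with a difference of -1.01 ± 0.20 and an edgeR FDR of 0.0566: its log2 fold change was 0.89 in Bcor-edited marrow, while in Ezh2-edited marrow it was at 67.4, 70.8, 70.0 and 65.3 CPM with the Runx1 guide and 67.5, 72.6 and 83.1 without. Without the third sgEzh2 + sgLuc library the interaction gave 1 called member, where 0.743% of all genes were called. Among the 5 edited groups alone, a comparison that leaves out sgLuc and with it the difference in sex, 17 of 95 members differed, 11 nuclear and 6 mitochondrial, where 26.2% of all genes did, and 29 differed without the third sgEzh2 + sgLuc library, where 31.8% of all genes did. The smallest edgeR FDRs were those of Ndufv3 at 0.000198, Ndufa8 at 0.000998, Uqcrc1 at 0.00171, Sdhc at 0.00492, Sdhd at 0.00803 and mt-Co2 at 0.0106. Over all 6 groups 27 members differed, 19 nuclear and 8 mitochondrial, where 30.6% of all genes did. Counting all 9 pairwise comparisons, 34 of the 95 members were called at least once, 24 nuclear and 10 mitochondrial. The share of all genes called at least once was not counted, so these 34 cannot be set against a background.

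Genes that build or serve the complexes were counted from lists beside the members. Of 77 genes of mitochondrial ribosomal proteins, which translate the mitochondrial transcripts, 8 rose and 0 fell in sgBcor + sgRunx1 against sgBcor + sgLuc, with 70 above 0 and a median of 0.24, where 3.47% of all genes were called higher and 8.77% lower. Mrpl19, a large-subunit protein, was at 50.5, 49.1 and 54.9 CPM there against 29.0, 28.6 and 29.8, without overlap, and rose by 0.82 ± 0.13 (edgeR FDR 0.000713). It was also at 46.8, 45.8 and 51.4 CPM in sgRunx1 + sgLuc, where sgLuc ranged from 29.1 to 38.3. Without the second sgBcor + sgRunx1 library 1 of the 77 was called and 60 were above 0.

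Of 14 complex I assembly genes, 2 rose in sgBcor + sgRunx1 against sgBcor + sgLuc, Ndufaf8 by 0.75 ± 0.21 and Tmem126b by 0.60 ± 0.19, where 12.2% of all genes were called. In sgRunx1 + sgLuc against sgLuc 2 of the 14 fell, Tmem126b by 0.81 ± 0.17 and Ndufaf7 by 0.49 ± 0.11. Tmem126b also fell by 0.71 ± 0.16 in sgBcor + sgLuc and by 0.51 ± 0.15 in sgEzh2 + sgRunx1, and Acad9 rose by 0.36 ± 0.12 in sgBcor + sgRunx1, each against sgLuc. Tmem126b, which helps build the membrane arm, was at 9.38, 9.85 and 8.73 CPM against 5.74, 5.54 and 7.21, and its 7.92 to 12 CPM in sgLuc lay above all of sgRunx1 + sgLuc, at 6.20, 5.13 and 5.95. Of 20 complex IV assembly genes, 2 fell in sgRunx1 + sgLuc against sgLuc, Cox11 by 0.83 ± 0.19 and Pet100 by 0.89 ± 0.22, where 8.12% of all genes were called. Surf1 fell by 0.38 ± 0.12 in sgEzh2 + sgRunx1, and Pet100 by 0.76 ± 0.22 in sgEzh2 + sgLuc, each against sgLuc. Every one of these calls of complex I and complex IV assembly genes ended under at least 1 of the 22 omissions, that of Surf1 under 18 and that of Pet100 in sgEzh2 + sgLuc under 9, the omission of the third sgEzh2 + sgLuc library among them. Of 18 genes that copy or express mitochondrial DNA, 1 was called in any comparison of groups in pairs: Mterf4, which rose by 0.61 ± 0.17 in sgBcor + sgRunx1 against sgLuc (edgeR FDR 0.0192). There 14.4% of all genes were called, and the call of Mterf4 ended under 2 omissions. In sgEzh2 + sgLuc against sgLuc, 0 to 5 of the 18 were called higher over the omissions.

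Etfb, a subunit of the flavoprotein that passes electrons from fatty acid oxidation to the chain, was higher in both double edits. It was at 15.3, 16.6, 16.2 and 11 CPM in sgEzh2 + sgRunx1 and at 15.1, 26.5 and 18.4 in sgBcor + sgRunx1, above the sgLuc range of 5.71 to 10.6. Against sgLuc it rose by 0.95 ± 0.22 (edgeR FDR 0.00921) and by 1.39 ± 0.24 (edgeR FDR 0.000822), and both calls held under all 22 omissions. Of 10 carrier and pore genes, Vdac2, a channel of the outer mitochondrial membrane, was at 299, 313 and 342 CPM in sgBcor + sgRunx1 against 221, 252 and 191 in sgBcor + sgLuc and rose by 0.52 ± 0.13 (edgeR FDR 0.0115). Of 9 regulators, Ppargc1a, a coactivator of mitochondrial biogenesis, was at 0.776, 0.400 and 0.962 CPM in sgEzh2 + sgLuc and had 0 reads in all 4 sgEzh2 + sgRunx1 libraries. With a floor of 3 counts over the group it was at least 43.3-fold lower there (edgeR FDR 0.000451), from 104 counts in all, and the call held under all 22 omissions. The low level was not particular to that double edit: Ppargc1a was at 0 to 0.0224 CPM in sgRunx1 + sgLuc and 0 to 0.0566 in sgBcor + sgRunx1. In sgLuc it ranged from 0.0616 to 0.389 CPM. Against sgLuc it was called lower in sgEzh2 + sgRunx1 and in sgRunx1 + sgLuc, where the call ended under 5 omissions. Ppargc1b of the same list was at 7.98, 6.75, 9.01 and 8.42 CPM in sgEzh2 + sgRunx1, against 3.33, 3.05 and 14.7 in sgEzh2 + sgLuc. In sgLuc Ppargc1b ranged from 2.69 to 5.34 CPM. It was called higher in sgEzh2 + sgRunx1 than in sgLuc, and that call ended under 3 omissions.

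Glycolysis, which makes ATP without oxygen, was set beside respiration. Of 13 genes, 3 rose and 0 fell in sgBcor + sgRunx1 against sgBcor + sgLuc, with 11 above 0 and a median of 0.54, where 3.47% of all genes were called higher and 8.77% lower. Tpi1, the triose phosphate isomerase, was at 256, 316 and 314 CPM against 201, 195 and 203 and rose by 0.57 ± 0.13 (edgeR FDR 0.00946). Pkm, the pyruvate kinase, and Gpi1, the glucose phosphate isomerase, rose by 0.76 ± 0.20 and 0.86 ± 0.25, and Tpi1 was the gene still called without the second sgBcor + sgRunx1 library. In sgEzh2 + sgRunx1 against sgEzh2 + sgLuc, Hk1, a hexokinase, rose by 0.66 ± 0.16 (edgeR FDR 0.0103), while the 12 other genes were not called, with 11 of 13 above 0 and a median of 0.37. Without the third sgEzh2 + sgLuc library 2 were called higher, Hk1 among them, 9 were above 0 and the median was 0.23. Ldha, the lactate dehydrogenase subunit, fell against sgLuc by 0.80 ± 0.18 in sgRunx1 + sgLuc (edgeR FDR 0.00931) and by 0.59 ± 0.16 in sgEzh2 + sgRunx1 (edgeR FDR 0.0217), and Gapdh and Gpi1 rose by 1.71 ± 0.47 and 0.79 ± 0.21 in sgBcor + sgRunx1. These calls of Ldha, Gapdh and Gpi1 each ended under 1 or more omissions. Egln3, an oxygen-dependent prolyl hydroxylase that responds to low oxygen, was at 26.5, 31.9, 36.8 and 31.1 CPM in sgEzh2 + sgRunx1 against 17.9, 14.4 and 7.26, and at 43.9, 34.3 and 51.8 in sgBcor + sgRunx1 against 22.6, 19.1 and 17.9. It rose by 1.26 ± 0.25 (edgeR FDR 0.00298) and by 1.12 ± 0.26 (edgeR FDR 0.0104), with no overlap in either comparison. The first of these calls held under all 22 omissions, and the second ended without the last sgBcor + sgLuc library. Of the 10 genes on that list of low-oxygen respiration, Egln3 rose and Pdk1, a kinase that holds back pyruvate oxidation, fell in the Ezh2 comparison. Pdk1 was at 26.2, 20.7, 27.2 and 22.4 CPM against 25.1, 29.3 and 110, and its call (-1.19 ± 0.38, edgeR FDR 0.0434) ended under 15 omissions, that of the third sgEzh2 + sgLuc library among them. Higd2a, an assembly factor of complex IV, fell against sgLuc by 0.37 ± 0.11, 0.47 ± 0.11 and 0.41 ± 0.10 in sgRunx1 + sgLuc, sgEzh2 + sgLuc and sgEzh2 + sgRunx1, calls that ended under 18, 1 and 2 omissions, the 1 being that of library 3 of sgEzh2 + sgLuc.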

How the data were processed

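Polyadenylated RNA of 22 mouse bone marrow samples was sequenced. The authors deposited read counts and FPKM per gene; the tools named per the submitters' processing notes are HTSeq, HISAT2 and fastp, and the build is mm9. Not given in the sources used here are tool versions and options, annotation release, use of strand and treatment of multi-mapped reads. The deposited FPKM values equalled count over library total with 1 length per gene, so their depth is that of the counts.

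Tests used the counts with edgeR 4.0.16 in R 4.3.3: TMM scaling, a minimum count of 10 (filterByExpr by group), 1 mean per group, 16 residual degrees of freedom, and the quasi-likelihood test, with Benjamini-Hochberg adjustment over 17659 genes and a threshold of 0.05. The SE was taken from the fold change and its F statistic. The tests were checked on simulated data with the same dispersion for every gene and no deviating library. Such a check does not cover the unequal libraries of these data. Summed levels and their ratio were described without a test. Transcripts were searched with blastn 2.17.0. Promoter motifs were searched as short cores, a choice made after longer forms had been counted. Coordinates are those of GRCm38, since no mm9 genome was used here, and none were converted.

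The members and lists were chosen with earlier results of these data known. Named are all members called in a pairwise comparison, where at most 12, the mitochondrial members, complex II, the isoform sets, the leading gene of each complex and the 6 members with the smallest p among the edited groups, and up to 3 genes per other list and comparison. Alternatives were other scalings, no filter on low counts, DESeq2 1.42.0, limma 3.58.1 with voom, a replicate block, only the groups compared, and leaving out each library.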

Additional observations from a re-analysis of the deposited data

Results flagged for a closer look

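Single deviating libraries were looked for only in sgLuc, with 6 libraries, and in sgEzh2 + sgRunx1, with 4. Groups of 3 libraries were not examined, the third sgEzh2 + sgLuc library included, so their lack of flags is not a result. Of 116 group values examined, 9 held a library whose gap to the nearest other exceeded Dixon's 95% limit for its group. Chance flags about 1 in 20 groups. Replicate 2 of sgEzh2 + sgRunx1 accounted for 4 of the 9 flags. Its summed nuclear level was 10970 CPM, against 8583 to 8950 in the other libraries of the group. Its complex IV sum was 2317 CPM against 1801 to 1878, and its complex V sum 4297 against 3249 to 3427. Both are parts of the nuclear sum, so these flags overlap. Ndufa4, a subunit of complex IV, stood at 160.7 CPM there against 116.7 to 121.9.

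The remaining 5 lay in sgLuc. mt-Atp6 was low in replicate 6, at 7.36 CPM against 11.49 to 13.94 in the others. Cox5a was low in replicate 2, at 72.94 CPM against 84.65 to 89.11. Ndufb5 was high in replicate 5, at 53.68 CPM against 42.45 to 44.57, and so was Sdhc, at 91.16 against 77.86 to 81.66. Uqcrc1 was high in replicate 3, at 237.7 CPM against 210.4 to 219.1.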

How the results depend on the processing

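Counts of members called that moved by over 1.5 times are given here, for comparisons with sgLuc in the order of the single edits of Runx1, Ezh2 and Bcor and then the double edits with Ezh2 and with Bcor, whose counts were 9, 10, 5, 5 and 10. With a replicate block these were 1, 3, 3, 3 and 4. With the block, sgEzh2 + sgRunx1 against sgEzh2 + sgLuc had 6 of 10, sgBcor + sgRunx1 against sgBcor + sgLuc 5 of 12 and against sgRunx1 + sgLuc 0 of 3, the 6 groups 9 of 27 and the 5 edited groups 11 of 17. The numbers did not pair libraries: 0 of 46 same-numbered pairs correlated over 0.1, and 5 of 22 libraries correlated best with their own number. With only the groups compared, the first 4 comparisons with sgLuc gave 15, 3, 11 and 9, sgEzh2 + sgRunx1 against sgEzh2 + sgLuc 0, sgBcor + sgRunx1 against sgBcor + sgLuc 3 and against sgRunx1 + sgLuc 0. DESeq2 gave 16, 19 and 10 in the first 3, 9 in sgBcor + sgRunx1 against sgRunx1 + sgLuc, 31 among the 5 edited groups and 1 for the interaction. Without a filter, sgBcor + sgRunx1 gave 6 against sgBcor + sgLuc and 0 against sgRunx1 + sgLuc. Library totals gave 21 in sgEzh2 + sgLuc against sgLuc and 3 in sgBcor + sgRunx1 against sgBcor + sgLuc, and moved the median of all genes there by 0.12 and -0.17, and by 0.14 in the interaction. The cause of these moves was not tested. Leaving out 1 library gave 1 to 16, 3 to 14, 3 to 10, 5 to 7 and 6 to 19 against sgLuc, 3 to 13 in sgEzh2 + sgRunx1 against sgEzh2 + sgLuc, 4 to 24 and 0 to 12 in sgBcor + sgRunx1 against sgBcor + sgLuc and sgRunx1 + sgLuc, 17 to 42 over 6 groups, 12 to 34 over 5, and 0 to 1 for the interaction. The nuclear sum of sgEzh2 + sgLuc, -0.01 from sgLuc in log2, became 0.10 with library totals and 0.10 with summed FPKM, and ran from -0.06 to 0.01 over omissions. The mitochondrial sum of sgEzh2 + sgRunx1, at -0.10, became 0.17 as a mean of log2(CPM + 1) over genes. Depth limits Ndufs6b, Cox4i2, Cox7a1, Ndufb4c and mt-Nd4l, which had the fewest reads.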
